A study of Mus musculus with 3 samples.

Results

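The interferon regulatory factor (IRF) genes were followed in 3 splenic lymphomas of pBIC2 mice. This strain, kept on C57BL/6, models ABC-DLBCL, the form of large B cell lymphoma that resembles activated B cells. The genes were taken by name: Irf1, Irf2, Irf3, Irf4, Irf5, Irf7, Irf8 and Irf9, 8 of the 37646 genes listed in each count table. All 8 passed a filter on low counts that 11273 genes passed. The mice carried floxed p53 alleles (p53F/F), floxed Blimp1 alleles (Blimp1F/F), a constitutively active IKK2 behind a floxed stop cassette (IKK2castopF/stopF), 1 Cre allele (Cg1Cre/+) and a human BCL2 transgene (Eµ-hBCL2tg/+). Cre is expressed from the Cγ1 locus, which B cells transcribe as they enter the germinal centre reaction, and Eµ, the immunoglobulin heavy chain enhancer, drives human BCL2 in the B lineage. All libraries share these alleles. B220+GFP+ cells were sorted from fresh spleens, collected per the labels from moribund or control mice, after dead cells had been gated out. Each lymphoma, named here 1, 2 and 3 in the order of deposition, is represented by 1 library, and the germinal centre B cells that the labels name as controls were not analysed here. Values are therefore levels within the lymphomas and differences between them, given as mean ± SD (n = 3) with no test, because a single group holds no contrast. Nothing in the labels says outright that each library is a different animal, so the spread may be technical in part.

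IRF proteins are transcription factors that share an amino-terminal DNA-binding domain and recognise repeats of the bases GAAA. IRF3, IRF5 and IRF7 are activated downstream of sensors of nucleic acids and induce interferons. IRF9 is the DNA-binding part of ISGF3, the complex through which type I interferon switches on its target genes, while IRF1 activates and IRF2 mostly represses an overlapping set of targets. IRF4 and IRF8 bind DNA weakly alone and act with partners of the ETS and AP-1 families. In B cells IRF4 is induced by NF-κB and drives class switching and plasma cell differentiation at high dose, and IRF8 is prominent in germinal centre B cells.

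The libraries held 15576975, 16477997 and 17014022 gene counts in lymphomas 1, 2 and 3. Levels are given as CPM, the usual scaling of counts by library total, here with TMM factors that even out differences in RNA composition. All 10 B cell markers, among them Pax5 and Ms4a1, reached at least 10 CPM in each lymphoma. T cell markers summed to 195, 307 and 1352 CPM in lymphomas 1, 2 and 3, or 0.966%, 1.66% and 9.91% of the B cell marker sum. These percentages depend on Cd74 (13709, 8238 and 4910 CPM), the largest part of the B cell marker sum (20142, 18455 and 13643 CPM). Of the 10 T cell markers, 3 (Cd2, Cd5 and Lck, which some B cells also express) reached 10 CPM in every lymphoma. Cd3e, which defines T cells, had 0, 23 and 1023 counts. Macrophage and monocyte markers summed to 35.6, 403 and 183 CPM, mostly Cd68 (24.5, 322 and 165 CPM), and 1 of 10 reached 10 CPM in every lymphoma. The summed markers of NK cells (1.83, 2.43 and 49.3 CPM), dendritic cells (4.26, 7.78 and 49.2 CPM) and neutrophils (0.197, 16.3 and 41.35 CPM) were highest in lymphoma 3. The NK cell sum there was mostly Prf1 (0, 26 and 709 counts) and Gzma (0, 4 and 130 counts). Klrd1 (2, 7 and 10 counts) and Klre1 (0, 2 and 8 counts) were also highest in lymphoma 3. Klrb1c (26, 1 and 0 counts) was instead highest in lymphoma 1, and Ncr1 had no count in any lymphoma. Erythroid markers (8.13, 18.9 and 10.7 CPM) and stromal and endothelial markers (10.03, 2.67 and 4.37 CPM) were low throughout. In bulk libraries, fewer cells of a type and less RNA per cell cannot be told apart.

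All 8 IRF genes were expressed in every lymphoma. Each was at 10 CPM or more in all 3, as were 68.5% of the genes that passed the filter. Their median was 210 CPM, against 36.5 CPM for all genes passing the filter, and per kilobase of exon their median was 38.5 RPKM (CPM divided by exon length in kilobases), against 8.27 RPKM. Irf7 and Irf8 differed by 2-fold or more between the highest and the lowest lymphoma, 2 of 8, a share near that of all genes, with 34.9% of all genes passing the filter and 34.5% of genes at 10 CPM or more in at least 1 lymphoma. The median SD of log2 CPM was 0.32 for the 8 genes and 0.39 for all genes.

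**Figure D1:**
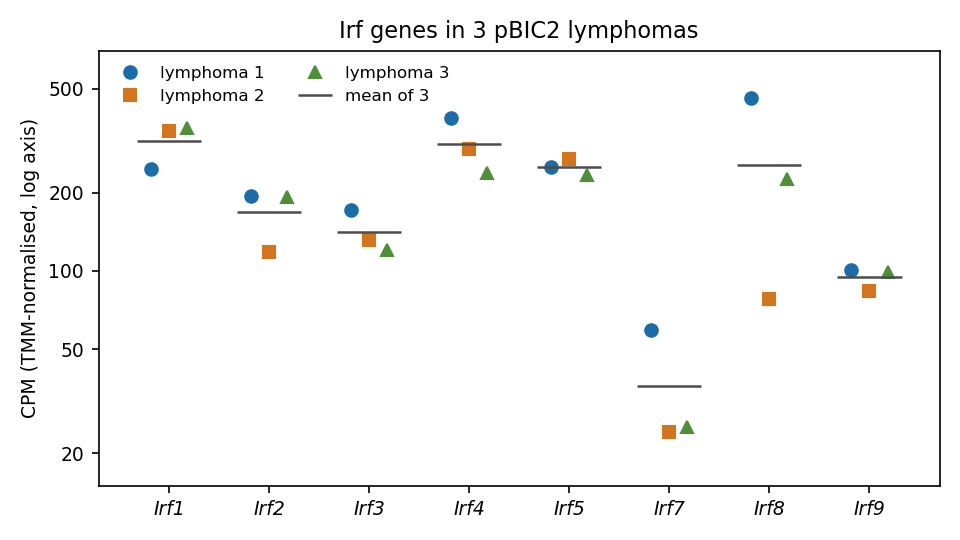
TMM-normalised CPM (log axis) of the 8 Irf genes, with 1 point for each lymphoma and a line at the mean of 3. Irf8 runs between 78.3 and 459.7 CPM, whereas the 3 points of Irf5 lie between 234 and 269.8 CPM.

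The promoters of 3 members hold matches to elements bound by IRF, STAT, ETS or NF-κB proteins. No other member held a match, so the promoters printed are those in which the search found one. Of all members, Irf8 varied most between the lymphomas, and Irf1 and Irf2 encode antagonists. The 250 bases before the RefSeq start site (GRCm38.p6, plus strand, 5′ to 3′) were searched on both strands for the ISRE core GAAANNGAAA, the ETS-IRF composite element GGAANNGAAA, the STAT element GAS (TTCNNNGAA) and the κB element, and the matches are in capitals.

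Irf8, chr8:120736108-120736357: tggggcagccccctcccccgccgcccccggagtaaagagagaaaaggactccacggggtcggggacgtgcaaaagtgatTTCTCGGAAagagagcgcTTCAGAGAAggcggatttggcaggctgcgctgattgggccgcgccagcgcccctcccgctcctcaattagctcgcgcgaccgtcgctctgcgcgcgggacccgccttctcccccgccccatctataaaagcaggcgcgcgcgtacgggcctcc

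Irf1, chr11:53769764-53770013: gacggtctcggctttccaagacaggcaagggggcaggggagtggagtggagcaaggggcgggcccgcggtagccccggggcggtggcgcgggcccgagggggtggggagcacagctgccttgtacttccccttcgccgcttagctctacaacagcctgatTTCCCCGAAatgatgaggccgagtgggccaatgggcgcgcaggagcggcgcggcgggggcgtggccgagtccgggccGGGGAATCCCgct

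Irf2, chr8:46739495-46739744: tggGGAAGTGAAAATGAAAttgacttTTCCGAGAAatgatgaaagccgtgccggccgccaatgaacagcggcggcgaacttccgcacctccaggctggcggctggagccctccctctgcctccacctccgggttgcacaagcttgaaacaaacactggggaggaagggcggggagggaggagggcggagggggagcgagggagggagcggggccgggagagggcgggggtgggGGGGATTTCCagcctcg

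Irf8 held 2 GAS matches, which start 171 and 153 bases before the start site. Irf1 held a GAS match 90 bases and a κB match 13 bases before it. Irf2 held a composite match that overlaps an ISRE match in a shared GAAA, 247 and 241 bases before the start site, a GAS match at 224 bases and a κB match at 17 bases. The GAS pattern is its own reverse complement, so each GAS match is a match on both strands, though its middle bases differ between them. The 8 members have 11 windows in all. Over all 32851 promoter windows of this length, 7.02% held a GAS match, 3.90% a κB match, 2.98% an ISRE match and 2.30% a composite match. The windows of Irf3, Irf4, Irf5, Irf7 and Irf9, including both of Irf9, and the second windows of Irf1 and Irf8 held no match. This says only that these letters are not in those windows. Both windows of Irf9 lie inside the gene as placed below, so the bases before its annotated start were not searched. A match is a description of the sequence and not of binding.

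Irf8 varied most. This gene, which lies at chromosome 8, 120736358 to 120756694 (plus strand, mm10, ENSMUSG00000041515.10), was at 459.7 CPM in lymphoma 1, 78.3 CPM in lymphoma 2 and 225 CPM in lymphoma 3 (mean 254.5 ± 192 CPM). With TMM factors, no pair of lymphomas was within 2-fold of each other, but lymphomas 1 and 3 were close to that limit. Scaled by library totals alone, lymphomas 1 and 3 came within 2-fold. Lymphoma 1 exceeded lymphoma 2 by 5.87-fold, with an exact 95% interval of 5.53 to 6.24 that covers counting error only. The SD of log2 CPM was 1.28, and 6.52% of genes passing the filter had a larger SD. The ratio of the highest to the lowest lymphoma was 2.79 without lymphoma 1, 2.04 without lymphoma 2 and 5.88 without lymphoma 3. Irf8 is also known from dendritic cells and macrophages. Lymphoma 2, where Irf8 was lowest, had the highest macrophage marker sum. The 8 plasmacytoid dendritic cell markers summed to 604, 417 and 393 CPM in lymphomas 1, 2 and 3, highest where Irf8 was highest, and 2 of them (Tcf4 and Bst2, which B cells also express) reached 10 CPM in every lymphoma. Ccr9, with 89, 23 and 69 counts, had the order of Irf8, while the defining markers Siglech (1, 5 and 0 counts) and Klk1 (1, 0 and 2 counts) were near 0. The other markers of this list, Lag3 (59, 88 and 385 counts), Pacsin1 (17, 137 and 151 counts) and Cox6a2 (10, 1 and 37 counts), were highest in lymphoma 3. None of the 6 dendritic cell markers reached 10 CPM in every lymphoma, and their sum was highest in lymphoma 3, through Itgax (5, 58 and 759 counts). Zbtb46 had 24, 37 and 67 counts, Flt3 20, 18 and 16, Xcr1 16, 15 and 10, and Clec9a 0, 0 and 1. The part of these cells in the Irf8 values was not tested.

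Over the 3 lymphomas, the protein-coding genes closest to Irf8 in centred log2 CPM were Sel1l3 (46.4, 8.20 and 22.7 CPM in lymphomas 1, 2 and 3), Bcl2l11, which encodes the cell death protein BIM (163.6, 23.6 and 75.7 CPM), and Whrn (98.4, 14.6 and 40.7 CPM). Their distances were 0.057, 0.17 and 0.18 on the log2 scale. Of 8189 genes at a mean of 10 CPM or more, 6 lay within 0.25 of Irf8. With 3 libraries, such likeness describes these samples only.

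Irf4, at chromosome 13, 30749226 to 30766976 (plus strand, ENSMUSG00000021356.10), stood at 387 CPM in lymphoma 1, 294 CPM in lymphoma 2 and 238 CPM in lymphoma 3 (306 ± 75.5 CPM). Lymphoma 1 was the highest, as for Irf8, but lymphoma 3 and not lymphoma 2 was the lowest. Its highest value was 1.63 times its lowest, and 56.3% of genes passing the filter had a larger SD than its 0.35. Plasma cells express Irf4 strongly. The plasma cell markers summed to 373, 252 and 180.1 CPM in lymphomas 1, 2 and 3, the order of Irf4. Of the 6, 2 (Mzb1 and Xbp1) reached 10 CPM in every lymphoma. The order of the sum was that of Mzb1 (154, 140 and 45.7 CPM) and Derl3 (128, 30.7 and 6.27 CPM). Xbp1 (89.0, 72.6 and 115.5 CPM) and Jchain (1.38, 8.02 and 12.1 CPM) were highest in lymphoma 3, where Irf4 was lowest. The defining markers Sdc1, with 3, 7 and 9 counts, and Tnfrsf17, with 3, 0 and 0 counts, were near 0. The part of plasma cells in the Irf4 values was not tested.

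The ratio of Irf4 to Irf8 within a library does not depend on library scaling. Per kilobase of the union of annotated exons, Irf4 was 1.21-fold above Irf8 in lymphoma 1, 5.40-fold in lymphoma 2 and 1.52-fold in lymphoma 3, a mean log2 ratio of 1.10 ± 1.16. Lymphoma 2 stood apart, and without it the mean was 0.44. The sign of the ratio rested on the length used. With the longest annotated transcript of each gene, the ratio was 0.613, 2.73 and 0.768 in lymphomas 1, 2 and 3, so that Irf4 was above Irf8 in lymphoma 2 alone, as it was with the median coding transcript (0.314, 1.40 and 0.394). The difference between lymphomas is the same under each length.

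Genes for the proteins with which IRF4 and IRF8 bind DNA were mostly expressed. Of 9 partner genes, 8 had 10 CPM or more in all lymphomas, against 68.5% of all genes passing the filter. Of the 8 that passed the filter, 4 (Batf, Jun, Junb and Tcf3) differed by 2-fold or more, against 34.9% of all genes. Spib, an ETS factor of B cells and of plasmacytoid dendritic cells, had 1319, 1147 and 1194 CPM in lymphomas 1, 2 and 3, and differed by 1.15-fold between the highest and the lowest. Its relative Spi1 (PU.1) was at 61.2, 109.9 and 72.8 CPM. Ikzf1 (Ikaros) was at 886 ± 107.5 CPM. The AP-1 partners ranged widely in spread. Jund differed by 1.10-fold between the highest and the lowest lymphoma (289, 268 and 294 CPM in lymphomas 1, 2 and 3). Batf3 had 6 counts in lymphoma 1, against 267 and 227 counts in lymphomas 2 and 3. Jun was at 133.5, 1147 and 726 CPM. Batf was at 18.9, 11.1 and 28.5 CPM. Tcf3, which is no AP-1 gene, was at 647, 705 and 286 CPM, a 2.46-fold difference.

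Genes of B cell fate that IRF4 or IRF8 regulate split into abundant and scarce ones. Of 9, Pax5 (1181 ± 179 CPM), Myc (783 ± 177.5 CPM) and Pou2af1 (616 ± 58.0 CPM) had the most reads. At 10 CPM or more throughout were 6 of the 9, against 68.5% of all genes passing the filter. None of the 7 that passed the filter differed by 2-fold, against 34.9% of all genes. Prdm1 and Bcl6 were among the scarce ones, and Bcl6 did not pass the filter. Prdm1, the plasma cell factor Blimp1 whose alleles are floxed in these mice, had 107, 169 and 137 counts (7.01, 10.3 and 7.88 CPM in lymphomas 1, 2 and 3). Bcl6, the germinal centre repressor, had 7, 43 and 257 counts. Its lowest value was in lymphoma 1, where Irf4 and Irf8 were highest.

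The NF-κB and B cell receptor genes upstream of Irf4 were all at 10 CPM or more in every lymphoma (11 of 11). Of all genes passing the filter, 68.5% were. Syk, the kinase of the B cell receptor, was at 564, 1241 and 1279 CPM in lymphomas 1, 2 and 3. Malt1, a component of the complex that links the receptor to IKK, was at 493, 327 and 266 CPM, in the same order as Irf4. The NF-κB subunit Rel, a direct inducer of Irf4, was at 403, 340.1 and 309 CPM, also in that order. The subunits Rela, Relb, Nfkb1 and Nfkb2 were instead highest in lymphoma 3, where Irf4 was lowest, as were 7 of the 11 genes in all. The share of all genes highest in lymphoma 3, without a fold limit, is not given here. Cd40 was at 61.95, 170.5 and 106 CPM, with its lowest value in lymphoma 1, where Irf4 was highest. Of the 11 genes, 3 differed by 2-fold or more, a share near the 34.9% of all genes.

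Irf7, the amplifier of type I interferon production, was the scarcest member per length. The gene lies at chromosome 7, 141262706 to 141266481 (minus strand, ENSMUSG00000025498.15). It was at 59.1 CPM in lymphoma 1, 24.05 CPM in lymphoma 2 and 25.2 CPM in lymphoma 3 (36.1 ± 19.9 CPM), on 902, 396 and 438 counts. Lymphoma 1 was alone in being high, at 2.46 times the lowest value (exact 95% counting interval 2.18 to 2.77). Without lymphoma 1 the ratio was 1.015. Irf7 and Irf8 were both highest in lymphoma 1. Of all genes passing the filter, 12.5% had a 2-fold difference with the highest value in lymphoma 1, against 9.86% with it in lymphoma 2 and 12.5% in lymphoma 3. Both were lowest in lymphoma 2, as were 10.7% of all genes by the same limit. Plasmacytoid dendritic cells express much Irf7. Their marker sum, given for Irf8, was also highest in lymphoma 1, mostly through Tcf4 (535, 355 and 331 CPM in lymphomas 1, 2 and 3). Their markers Lag3, Pacsin1 and Cox6a2 were instead highest in lymphoma 3. The part of plasmacytoid dendritic cells in the Irf7 values was not tested. Many genes shared the pattern of Irf7, with 110 of 8189 within 0.25 on the log2 scale, led by Ss18 (195, 79.4 and 83.7 CPM), Dmxl1 (319, 132.7 and 135 CPM) and Foxn3 (139.6, 55.9 and 61.2 CPM) at distances of 0.0068, 0.028 and 0.045.

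Irf3, the constitutive partner of IRF7 in interferon induction, lies at chromosome 7, 44997648 to 45002848 (plus strand, ENSMUSG00000003184.15). It was at 171, 131 and 120.2 CPM in lymphomas 1, 2 and 3 (141 ± 26.6 CPM). Lymphoma 1 was again the highest, by 1.42-fold over lymphoma 3. Per kilobase of exon union, Irf3 exceeded Irf7 by 3.17-fold, 5.98-fold and 5.23-fold in lymphomas 1, 2 and 3, and the ratio stayed above 1 in all 3 lymphomas under each length tried.

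Irf5, which acts downstream of Toll-like receptors and MyD88, had the smallest spread of the family. At chromosome 6, 29526625 to 29541871 (plus strand, ENSMUSG00000029771.12), it was at 251, 269.8 and 234 CPM in lymphomas 1, 2 and 3 (251.5 ± 17.9 CPM). The highest value was 1.15 times the lowest, and 94.4% of genes passing the filter had a larger SD. Of its exon bases, 14.1% overlap exons of Tnpo3 on the opposite strand (174, 96.1 and 116 CPM), whereas the other overlaps cover at most 3.4% of a member's exons. They are of Irf1 with Gm17334 (10.4, 12.0 and 15.01 CPM), Irf3 with Bcl2l12 (28.0, 27.3 and 18.7 CPM), Irf7 with Phrf1 (166, 149 and 153 CPM) and Irf9 with Rnf31 (60.8, 62.3 and 72.5 CPM), of which Rnf31 alone is on the member's strand. How the counting treated strand is not stated in the labels, and reads in such overlaps cannot be told apart.

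The sensors and adaptors that act on IRF3, IRF5 and IRF7 were expressed broadly. Of 17 genes analysed, 16 reached 10 CPM in all lymphomas, the exception being Tlr3, against 68.5% of all genes passing the filter. Of these 16, 6 differed by 2-fold or more, near the 34.9% of all genes, beside Tlr3, which did not pass the filter. Unc93b1, the chaperone of nucleic acid-sensing Toll-like receptors, was at 623 ± 97.9 CPM, Irak1 at 183 ± 6.87 CPM and Ddx58, the cytosolic RNA sensor RIG-I, at 170.1 ± 31.4 CPM. The largest spread was that of a pair of receptors. Tlr3 had 2, 165 and 236 counts in lymphomas 1, 2 and 3, and so was lowest in the lymphoma with the most Irf3 and Irf7. Tlr4, the receptor of lipopolysaccharide, was at 13.2, 58.9 and 24.2 CPM, highest in lymphoma 2, which also had the highest macrophage marker sum. The part of macrophages in the Tlr4 value was not tested.

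Interferon genes themselves were almost silent. Of 16 genes analysed, 13 had no count in any lymphoma, among them Ifnb1 and 9 Ifna genes, where 3 counts would correspond to 0.197, 0.182 and 0.1725 CPM in lymphomas 1, 2 and 3. Ifnk had 1, 4 and 2 counts and Ifnl3 had 1, 0 and 0 counts. Ifng, the interferon of T and NK cells, had 3, 11 and 73 counts. Its order was that of the T cell marker sum, and the part of T cells in it was not tested. The receptor genes and their kinases were present, with 11 of 12 genes at 10 CPM or more throughout, and no count of Ifnlr1. Of all genes passing the filter, 68.5% reached that level. Of these 11 receptor and kinase genes, 3 had a 2-fold difference (34.9% of all genes). Jak1 was at 379 ± 126.5 CPM, Stat3 at 258 ± 85.9 CPM and Tyk2 at 169 ± 6.77 CPM. Jak2 (66.4, 45.7 and 120.0 CPM in lymphomas 1, 2 and 3) and Il10rb (57.4, 23.0 and 47.6 CPM) were the most variable.

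Irf9 and its ISGF3 partner Stat2 were steady. Irf9, at chromosome 14, 55603571 to 55610030 (plus strand, ENSMUSG00000002325.15), was at 101, 83.9 and 98.7 CPM in lymphomas 1, 2 and 3 (94.5 ± 9.22 CPM), and 89.5% of genes passing the filter had a larger SD. Stat2 was at 113, 110.5 and 79.9 CPM in lymphomas 1, 2 and 3. Neither gene reached 1.5-fold between the highest and the lowest lymphoma.

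The target genes of ISGF3 and IRF7 did not move as 1 block. Of 20, 7 reached 10 CPM in all lymphomas, against 68.5% of all genes passing the filter. The median of the mean levels of the 20 was 15.65 CPM, against 36.5 CPM for all genes passing the filter. Of the 19 that passed the filter, 13 differed by 2-fold or more, against 34.9% of all genes. Of the same 19, 8 were highest in lymphoma 1, 6 in lymphoma 2 and 5 in lymphoma 3. The share of all genes highest in each lymphoma, without a fold limit, is not given here. Targets that, like Irf7, were highest in lymphoma 1 included Oasl1, an OAS-like protein known in mice to restrain translation of Irf7 (36.3, 4.62 and 2.36 CPM in lymphomas 1, 2 and 3), Oas2, an RNA-sensing synthetase (98.6, 25.2 and 7.65 CPM), and Usp18, a feedback inhibitor of interferon signalling (40.25, 3.95 and 6.44 CPM). The targets with most reads did not all share that pattern. Zbp1, a sensor of Z-form nucleic acids, was at 72.1, 185 and 204 CPM, lowest in lymphoma 1. Xaf1 was at 98.2, 105 and 133 CPM, and Ifi27l2a at 64.7, 27.1 and 50.3 CPM.

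**Figure D2:**
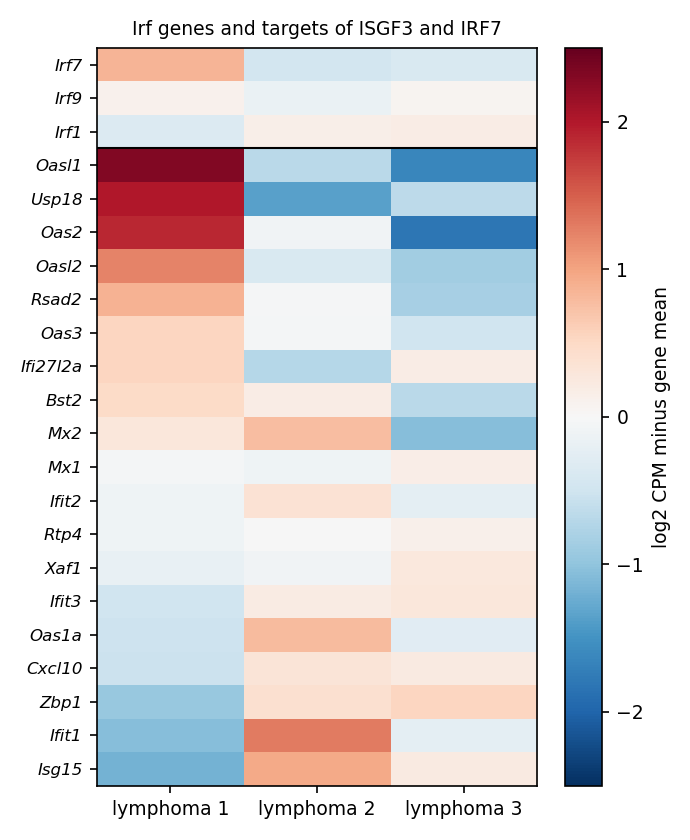
Log2 CPM minus the mean of each gene over the 3 lymphomas (colour), for Irf7, Irf9 and Irf1 above the line and for 19 targets of ISGF3 and IRF7 below it, ordered by their value in lymphoma 1. Oasl1, Usp18 and Oas2 are high in lymphoma 1, as is Irf7, whereas Isg15 and Ifit1 are highest in lymphoma 2 and Irf9 is nearly even.

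Irf1, an activator induced by interferon gamma and NF-κB, had its lowest value in lymphoma 1. Its promoter holds, as printed before, a GAS and a κB match. The gene lies at chromosome 11, 53770014 to 53778374 (plus strand, ENSMUSG00000018899.16). It was at 247 CPM in lymphoma 1, 345 CPM in lymphoma 2 and 353 CPM in lymphoma 3 (315 ± 59.15 CPM). Lymphomas 2 and 3 differed by 1.01-fold when scaled as a pair, and the highest value was 1.43 times the lowest over all 3. The T cell and macrophage marker sums were also lowest in lymphoma 1, though not every marker was (Cd5 was highest there). The part of these cells in the Irf1 values was not tested. Without lymphoma 3, which had the highest T cell marker sum, the ratio was 1.395.

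Irf2, the antagonist of IRF1, lies at chromosome 8, 46739732 to 46847458 (plus strand, ENSMUSG00000031627.9). It was at 194 CPM in lymphoma 1, 118 CPM in lymphoma 2 and 192 CPM in lymphoma 3 (168 ± 43.3 CPM). Lymphoma 2 was low and the other two were nearly equal, with a ratio of 1.01 without lymphoma 2. Per kilobase of exon union, Irf1 exceeded Irf2 by 2.37-fold, 5.43-fold and 3.42-fold in lymphomas 1, 2 and 3 (mean log2 ratio 1.82 ± 0.60), and by nearly the same folds with the longest transcripts. With the median length of the coding transcripts, 833 bases for Irf1 and 550.5 bases for Irf2, Irf1 was below Irf2 in lymphoma 1 (0.84-fold).

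Targets of IRF1 were abundant, with a median of 279.8 CPM. Of 17 genes, 16 reached 10 CPM in all lymphomas, against 68.5% of all genes passing the filter. Il15 (0.983, 7.65 and 8.91 CPM in lymphomas 1, 2 and 3) was the exception. B2m, the light chain of MHC class I, was at 4129 ± 497 CPM, Tap1, the peptide transporter, at 659 ± 65.3 CPM, and the guanylate-binding protein gene Gbp2 at 434, 1081 and 504 CPM. Of the 17 targets, 6, Il15 and Gbp2 among them, were lowest in lymphoma 1 like Irf1, and 11 were lowest in lymphoma 3, where Irf1 was highest. Of the 17, 3 (Gbp2, Il15 and Cd274) differed by 2-fold or more, against 34.9% of all genes, and 10 were highest in lymphoma 2. The share of all genes highest or lowest in a given lymphoma, without a fold limit, is not given here.

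Among proteins that regulate IRFs, 8 of 9 genes had 10 CPM or more in each lymphoma, against 68.5% of all genes passing the filter. Usp18 was the exception. Of the 9, 3 differed by 2-fold or more, again near the 34.9% of all genes. Swap70, which binds IRF4 in lymphocytes, was at 672 ± 48.2 CPM. Irf2bp2, a corepressor that binds IRF2, was at 452, 171 and 110.5 CPM in lymphomas 1, 2 and 3, an order unlike that of Irf2. Its relative Irf2bpl was at 44.2, 75.9 and 96.0 CPM, in the reverse order.

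Per length, the family was led by Irf5 (86.6 ± 6.16 RPKM with exon unions), Irf1 (79.3 ± 14.9 RPKM) and Irf4 (62.5 ± 15.4 RPKM). Irf3 (40.9 ± 7.72 RPKM), Irf8 (36.1 ± 27.3 RPKM), Irf2 (22.7 ± 5.85 RPKM), Irf9 (17.5 ± 1.71 RPKM) and Irf7 (9.57 ± 5.28 RPKM) followed. No neighbours in this order were apart, since the ranges of each pair over the 3 lymphomas overlapped. Within each library, Irf2 was above Irf9 and Irf9 above Irf7 in 3 of 3 lymphomas under each of the 3 lengths. Irf4 was above Irf3 in 3 of 3 with exon unions, and below it in 3 of 3 with the longest transcript and with the median coding transcript. Irf5 was at a higher mean RPKM than 96.1% of genes passing the filter, and Irf7 than 54.3%.

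The order depended on the length used. With the longest annotated transcript, Irf1 (147.5 ± 27.7 RPKM) was above Irf5 (112 ± 7.98 RPKM) in all 3 lymphomas, and Irf8 (73.35 ± 55.45 RPKM) moved to the third place. Irf4 and Irf2, Irf2 and Irf9, and Irf9 and Irf7 then had ranges that did not overlap. Irf7 was last in every lymphoma under each of the 3 lengths.

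**Figure D3:**
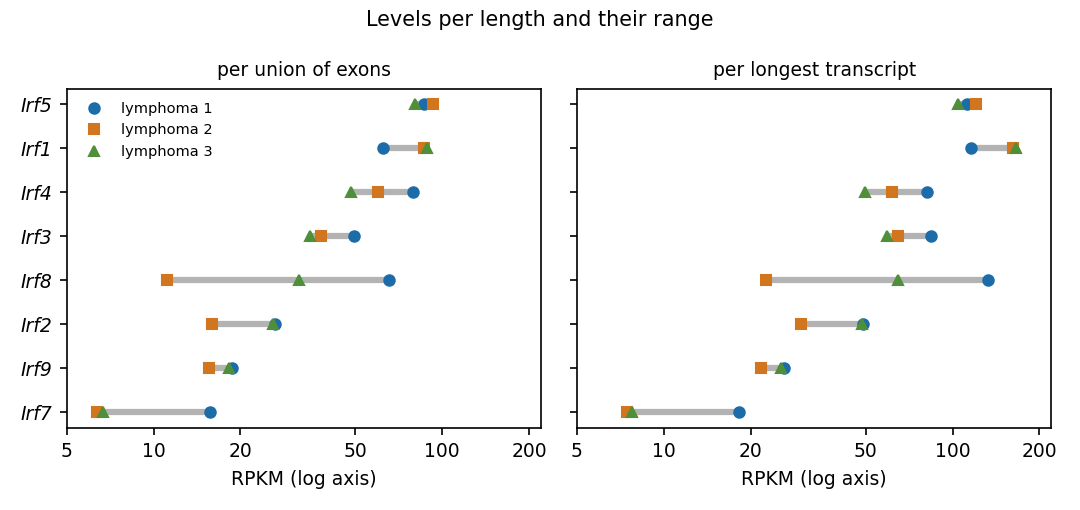
RPKM (log axis) of the 8 Irf genes in each lymphoma (points) with the range over the 3 (grey bars), divided by the union of exons on the left and by the longest transcript on the right. Irf8 spans 11.1 to 65.2 RPKM on the left, and so covers the whole ranges of Irf3, Irf2 and Irf9.

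The make-up of the family differed between lymphomas. Of the summed RPKM of the 8 genes (403, 327 and 336 in lymphomas 1, 2 and 3, exon unions), Irf8 held 16.2%, 3.397% and 9.52%, and Irf1 held 15.4%, 26.6% and 26.5%. Irf4 held 19.6%, 18.35% and 14.4%, and Irf5 21.4%, 28.4% and 24.0%. The shares rest on the length used: with the median coding transcript, Irf4 held 5.78%, 5.65% and 3.899%, Irf5 10.5%, 14.6% and 10.8%, Irf8 18.4%, 4.03% and 9.90%, and Irf1 21.1%, 37.9% and 33.1%. Under each length, Irf8 held its largest share in lymphoma 1 and its smallest in lymphoma 2. These shares are of RNA and say nothing of protein.

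**Figure D4:**
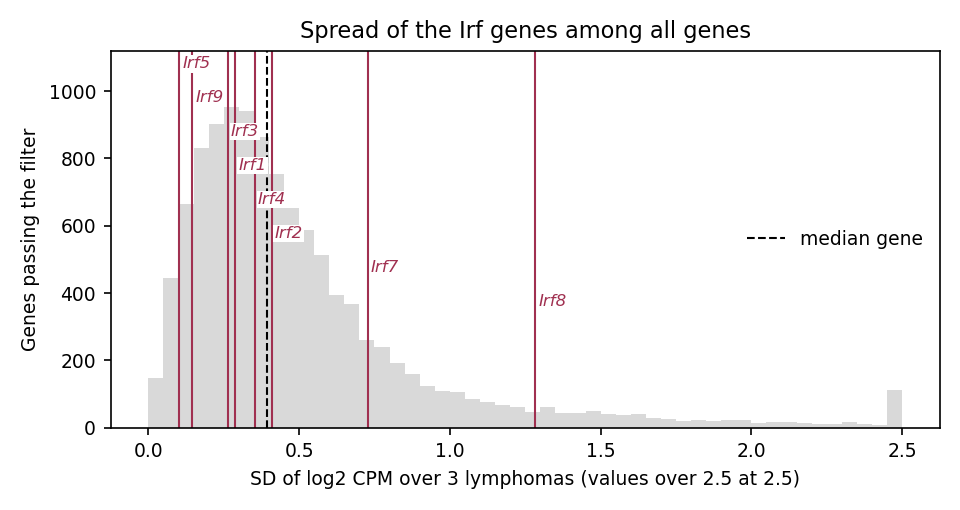
Number of genes passing the filter (grey bars) by the SD of log2 CPM over the 3 lymphomas, with the 8 Irf genes as red lines and the median gene, at 0.39, as a dashed line. Irf5 and Irf9 lie on the left, and Irf7 and Irf8 are the members well to the right of the median.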

How the data were processed

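PolyA RNA of 3 libraries was read as single ends of 50 nt on DNBseq, per the labels. The authors deposited whole-number counts for 37646 genes per library. The submitters' processing notes name FastQC, STAR 2.5.2b, featureCounts 1.6.0 and the build mm10. Annotation release and strand setting: not given in the sources used here.

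TMM factors (0.979, 0.999 and 1.02) were computed with edgeR 4.0.16 under R 4.3.3, on genes kept by filterByExpr, which with 1 group asks for counts in every library. Log2 CPM used a prior count of 2. Exon lengths and coordinates came from GENCODE M21, which held 37536 of the identifiers, and promoters from RefSeq (GRCm38.p6), matched by symbol for all 8 members. DESeq2 1.42.0 gave alternative size factors. Tables and figures were made in Python 3.11.15 (pandas 2.3.3, NumPy 2.4.6, matplotlib 3.10.9), and intervals with SciPy 1.17.1. The spread and ratio steps were tested on simulated data. Intervals and the 3-count floor cover counting error only, since PCR copies were not marked by molecular identifiers.

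The members and the gene lists were chosen with earlier results of these data known. Some genes are in more than 1 list (Usp18, Socs1, Ciita, Pax5, Xbp1 and Bst2). Text names all members, of each list the 3 genes of highest mean CPM and the 2 of largest SD of log2 CPM from a mean of 1 CPM, direct partners of IRF proteins (such as Spi1, Spib, Batf, Batf3 and Stat2), neighbours that share exons, and the 3 genes closest in profile to each member with a 2-fold difference. Prdm1, Cd274, Jund, Junb, Tcf3, Isg15, Ifit1, Ifnlr1, Ifnb1, Rela, Relb, Nfkb1, Nfkb2 and single cell type markers were named after their values were seen. Some genes under this rule are not reported here. Protein sequences, planned for the members, were not used here.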

Additional observations from a re-analysis of the deposited data

How the results depend on the processing

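Of 138 recomputed values, 132 moved by less than 1 SD between lymphomas or, for counts, stayed within 1.5 times the count reported. That rule is lenient, because dropping 1 of 3 values cannot by itself move their mean by 1 SD. The 132 also include the mean log2 ratio of Irf4 to Irf8 with the longest transcript, 0.12 against 1.10 with exon unions. The count is therefore no measure of how robust the results are. DESeq2 size factors, total counts, no filter on low counts, and leaving out immunoglobulin and mitochondrial genes moved no member's mean CPM by more than 6.95%. The number of members with a 2-fold difference was 4 with a limit of 1.5 (Irf2, Irf4, Irf7 and Irf8) and 1 with a limit of 3 (Irf8). It ranged from 1 to 2 when 1 lymphoma was left out, with Irf7 lost without lymphoma 1, while the share of all genes was 19.5%, 22.2% and 19.7% without lymphomas 1, 2 and 3, and 67.3% of all genes with no filter. The spread of some members rested on 1 lymphoma: the SD of log2 CPM was 0.0078 for Irf1 and 0.015 for Irf7 without lymphoma 1, and 0.010 for Irf2 and 0.020 for Irf9 without lymphoma 2. The order per length kept 4 of 8 ranks with the longest transcript, 3 of 8 with the median coding transcript and 6 to 8 when 1 lymphoma was left out. The mean log2 ratio of Irf4 to Irf8 was -0.84 with the median coding transcript and 0.44 to 1.52 when 1 lymphoma was left out. The background of genes at 10 CPM or more in at least 1 lymphoma was chosen after seeing the data. No paired analysis was possible because there is 1 group. With 3 libraries, a two-sided sign-flip test cannot give a p below 0.25.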
